A study of Mus musculus with 12 samples.

Results

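The protein-coding cytochrome P450 genes of families 1 to 4 were followed in whole lungs of neonatal mice. They were chosen by symbol (Cyp, a family number from 1 to 4 and a subfamily letter), with Cyp2f2 left out, and numbered 81 of the 52550 genes in the count table. Each of the 12 libraries came from the lung of 1 C57BL/6J mouse on postnatal day 5, with 3 mice in each of 4 groups. WT (Adm+/+) mice and Adm+/- mice, which carry 1 functional copy of the adrenomedullin gene Adm in all their cells, were injected intraperitoneally with lipopolysaccharide (LPS), a bacterial endotoxin, or with buffered saline (PBS). The LPS dose was 6 mg/kg, repeated daily for 3 injections from postnatal day 3, and all lungs were taken 6 h after the last injection. Values are given in the order of the replicate numbers, which are 3, 4 and 5 for WT PBS, 9, 10 and 11 for WT LPS, 6, 7 and 8 for Adm+/- PBS, and 1, 2 and 12 for Adm+/- LPS.

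Cytochrome P450 enzymes are heme proteins of the endoplasmic reticulum that insert an oxygen atom into their substrates, with electrons passed to them by the reductase Por. Families 1 to 3 are known mostly for the oxidation of drugs, combustion products and other foreign compounds, and several of their genes are switched on through receptors that bind such compounds. Family 4 enzymes hydroxylate fatty acids and eicosanoids. The liver holds most P450 forms, while the lung is known for a smaller set that includes Cyp4b1, Cyp2s1 and Cyp1b1.

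Of the 81 genes, 25 had enough counts to be tested, 47 were below the filter on low counts and 9 had no count in any library. Family 1 had 2 of 3 genes tested, family 2 had 13 of 49, family 3 had 1 of 9 and family 4 had 9 of 20. Few genes of the large subfamilies known from the liver were tested: 1 of 15 Cyp2c genes (Cyp2c44), 1 of 9 Cyp3a genes (Cyp3a13), 1 of 9 Cyp2d genes (Cyp2d22) and 1 of 8 Cyp4a genes (Cyp4a32). Cyp2c44 and Cyp3a13 lie apart from the clusters that the other genes of their subfamilies form on the same chromosomes. The Cyp4f subfamily had 6 of its 9 genes tested. Cyp1a2, which in liver oxidizes caffeine and aromatic amines, had 17 counts over all 12 libraries and 4 at most in any of them. Of the 25 tested genes, 6 were not above the filter's minimum in all libraries. Among them, Cyp2w1 was above it in 1 of the PBS and 4 of the LPS libraries, and Cyp2c44 in 3 and 0. Both passed only with the treatment in which they were high. Cyp2a5 was above it in 3 and 6, and its 3 PBS libraries are enough for the filter.

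Members that rose in both genotypes are introduced by the stretch of promoter that lies directly before their start. Whether they moved together across libraries was not tested. The stretches come from RefSeq (GRCm38.p6, the same chromosomes as mm10) and were trimmed to the bases before both the RefSeq and the Gencode start. They are those of Cyp1b1 (chr17:79715062-79715311, minus strand), Cyp4v3 (chr8:45333217-45333413, minus strand), Cyp2b10 (chr7:25897408-25897619, plus strand) and Cyp2e1 (chr7:140763569-140763738, plus strand). Each is written 5′ to 3′ along the gene, and capitals mark GCGTG, the core of the element that the aryl hydrocarbon receptor binds, or its reverse complement CACGC.
Cyp1b1: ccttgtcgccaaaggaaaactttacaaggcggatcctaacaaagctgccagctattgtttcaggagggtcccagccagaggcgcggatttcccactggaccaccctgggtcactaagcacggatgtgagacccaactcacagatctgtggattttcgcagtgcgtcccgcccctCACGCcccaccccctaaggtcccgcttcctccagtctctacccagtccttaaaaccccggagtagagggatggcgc
Cyp4v3: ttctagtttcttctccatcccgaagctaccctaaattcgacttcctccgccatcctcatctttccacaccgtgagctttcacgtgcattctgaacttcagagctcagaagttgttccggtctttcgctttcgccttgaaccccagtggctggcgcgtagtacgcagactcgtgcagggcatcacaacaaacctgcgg
Cyp2b10: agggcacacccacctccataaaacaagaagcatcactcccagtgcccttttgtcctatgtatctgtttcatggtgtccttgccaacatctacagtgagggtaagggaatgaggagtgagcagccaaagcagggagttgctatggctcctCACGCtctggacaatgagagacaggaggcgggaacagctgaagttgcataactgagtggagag
Cyp2e1: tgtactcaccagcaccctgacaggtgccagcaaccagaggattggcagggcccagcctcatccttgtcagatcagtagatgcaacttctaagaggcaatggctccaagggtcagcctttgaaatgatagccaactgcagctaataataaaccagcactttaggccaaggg
The GC content was 58.0% in Cyp1b1, 52.8% in Cyp4v3, 51.4% in Cyp2b10 and 51.2% in Cyp2e1. Cyp1b1 and Cyp2b10 held 1 match to GCGTG each, and Cyp4v3 and Cyp2e1 held none. Over 32851 RefSeq promoters, 28.2% held such a match in a stretch as long as that of Cyp1b1, 24.1% for Cyp2b10, 22.1% for Cyp4v3 and 18.8% for Cyp2e1. Neither TTCNNNGAA, the paired motif that STAT factors bind (in 4.97% to 7.02% of promoters), nor the TATA box TATAAA (in 8.04% to 12.4%) was found in the 4 stretches on either strand. The promoter table held 65 of the 81 genes and 21 of the 25 tested ones.

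Libraries held 22382535 to 38062873 counts on genes, with a median of 28494877, and levels are given as CPM, counts scaled to a common library size by edgeR's TMM method. The targeted gene Adm was at 3.96 to 8.15 CPM in WT and 2.87 to 6.28 CPM in Adm+/- libraries, and the ranges overlapped (log2 difference of −0.50 under PBS and −0.55 under LPS; adjusted p = 0.999 and 0.480, edgeR). Several libraries stood apart. WT LPS replicates 9 and 11 carried 3472 and 1769 CPM summed over 12 markers of squamous epithelium, against 33.4 CPM in WT LPS replicate 10 and 3.79 to 48.7 CPM elsewhere. Skeletal muscle markers summed to 757 to 1937 CPM in the 3 WT LPS libraries and to 34.5 CPM at most in the other groups. WT PBS replicate 5 and Adm+/- PBS replicate 6 placed 77.8% and 80.1% of their counts on protein-coding genes, where the other 10 had 84.3% to 87.6%. The Y-linked gene Ddx3y was at 40.5 CPM or more in 3 libraries (WT PBS replicate 5, WT LPS replicate 11 and Adm+/- PBS replicate 8) and at 0.250 CPM at most in the rest.

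Cyp4b1, a fatty acid hydroxylase that also activates furan toxins in the lung, had the highest level per length in every group. Levels between genes are compared as CPM per kb of exon. Cyp4b1 averaged 45 CPM per kb over the 12 libraries (range 40.3 to 53.1). Cyp2s1, a P450 of epithelia, came next at 9.40 CPM per kb (7.68 to 11.7), and the ranges of these genes did not overlap. Cyp2d22, the mouse gene closest to the human drug-oxidizing CYP2D6, averaged 7.78 CPM per kb (4.67 to 12.0), the fatty acid hydroxylase gene Cyp4f16 averaged 7.50 (5.91 to 9.78) and its relative Cyp4f13 averaged 4.83 (4.13 to 5.64). Cyp2s1, Cyp2d22 and Cyp4f16 overlapped each other in range, and so did Cyp2d22 and Cyp4f13. The lowest of the tested genes was Cyp2c44 with 0.139 CPM per kb.

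**Figure D1:**
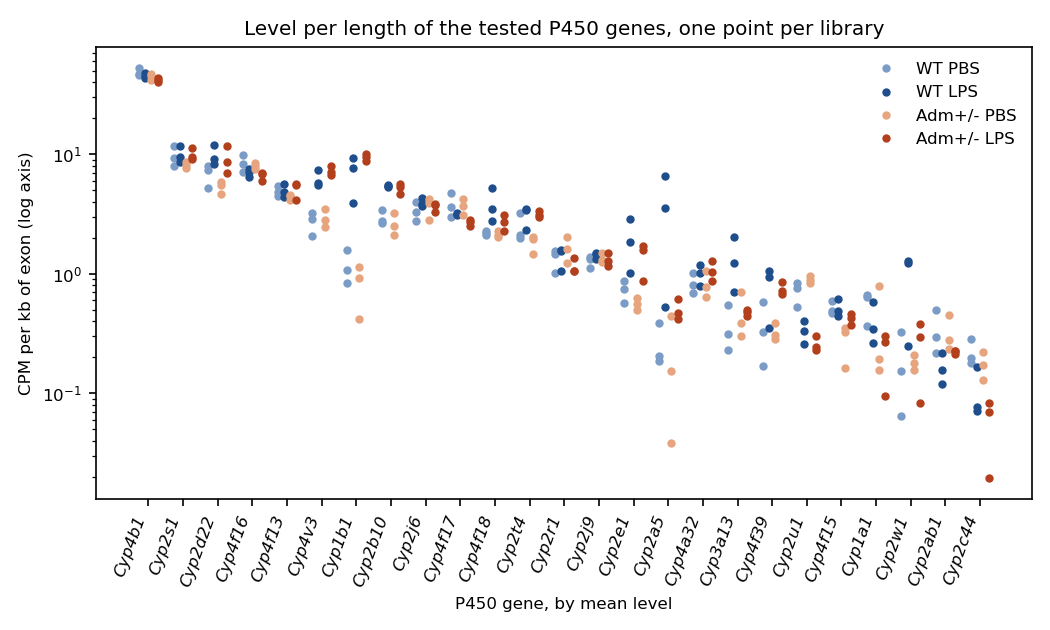
Level per length of the 25 tested P450 genes, in CPM per kb of exon on a log axis, with 1 point for each of the 12 libraries coloured by group. Cyp4b1 stands above all others at 40.3 to 53.1 CPM per kb, and the points of Cyp1b1 split into low PBS and high LPS libraries.

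The order of the genes was not the same in the 4 groups. Cyp4b1 and Cyp2s1 ranked 1 and 2 in each. Cyp1b1 ranked 14 in WT PBS and 15 in Adm+/- PBS, with 1.16 ± 0.383 and 0.829 ± 0.375 CPM per kb (SD, n = 3). It ranked 5 in WT LPS and 3 in Adm+/- LPS, with 6.96 ± 2.80 and 9.43 ± 0.580 CPM per kb (SD, n = 3). As a share of the summed CPM per kb of the 25 genes, Cyp4b1 took 44.2% to 49.2% in the PBS libraries and 34.1% to 38.5% in the LPS libraries. These shares did not overlap, while the level of Cyp4b1 itself did between PBS and LPS.

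In WT mice, LPS was followed by a rise of 8 of the 25 tested genes (Cyp1b1, Cyp2a5, Cyp2b10, Cyp2e1, Cyp2w1, Cyp3a13, Cyp4f18 and Cyp4v3) and a fall of 1 (Cyp2u1). A gene was called at a Benjamini-Hochberg adjusted p below 0.05 over 15885 genes and an absolute log2 fold change above 0.5 in edgeR's quasi-likelihood F-test. The 9 called genes are 36% of those tested, and over all 15885 genes 17.6% were called (10.5% higher and 7.09% lower). Among the 9, Cyp2w1 passed the filter only with the LPS libraries, in which it was high. In Adm+/- mice, 6 genes rose (Cyp1b1, Cyp2b10, Cyp2d22, Cyp2e1, Cyp2t4 and Cyp4v3) and 2 fell (Cyp2c44 and Cyp2u1). These 8 genes are 32% of the 25, against 25.0% of all genes (12.8% higher and 12.2% lower). Cyp2c44 among them passed the filter only with the PBS libraries, in which it was high. At an unadjusted p below 0.05, edgeR found 13 of the 25 genes in WT mice, beside 36.7% of all genes, and 11 in Adm+/- mice, beside 41.8%. The median log2 fold change of the 25 genes was 0.24 in WT and 0.30 in Adm+/- mice, beside 0.01 and −0.01 over all tested genes. Without WT LPS replicates 9 and 11, which carried the squamous markers, 1 gene was called in WT mice (Cyp1b1) and 9 in Adm+/- mice, and the calls over all genes in WT mice went from 2791 to 759 (3968 to 3872 in Adm+/- mice). That fit leaves WT LPS with 1 library, which is assumed to vary like those of the other groups. Of the calls it lost, Cyp4v3, Cyp2b10 and Cyp2u1 had log2 fold changes of 1.01, 0.85 and −1.08 there, beside 1.18, 0.88 and −1.10 with all libraries.

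**Figure D2:**
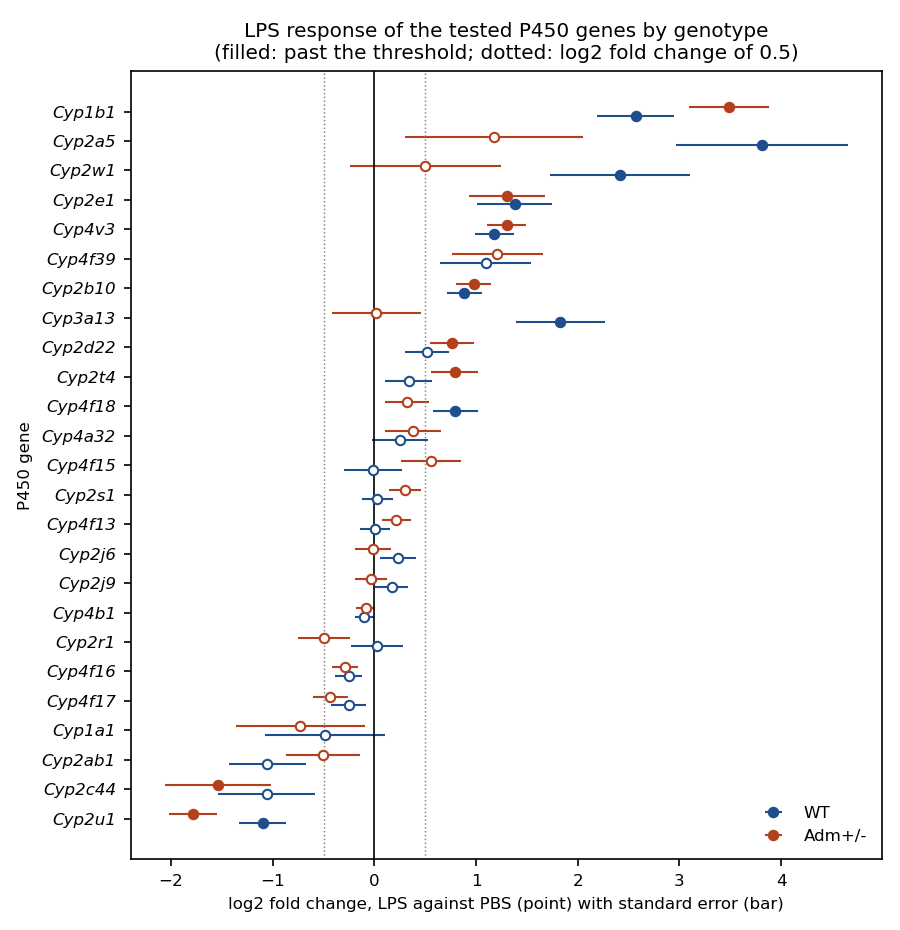
Log2 fold change of LPS against PBS for each of the 25 tested P450 genes in WT (blue) and Adm+/- (red) mice, as a point with its SE from the edgeR fit. Filled points are past the threshold, and the dotted lines mark a log2 fold change of 0.5 in either direction. Cyp1b1 and Cyp4v3 lie to the right of both lines in both genotypes, Cyp2u1 lies to the left in both, and Cyp2a5, Cyp2w1 and Cyp3a13 are filled in WT mice.

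**Figure D3:**
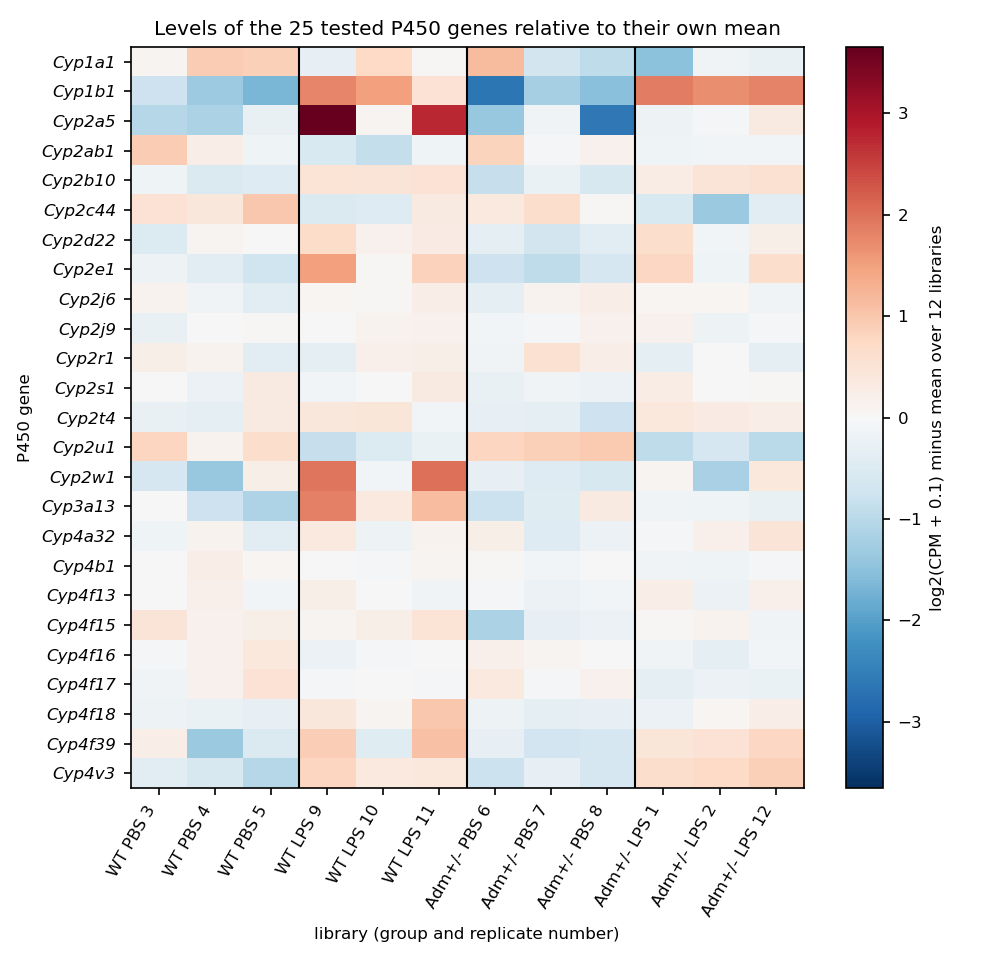
Heat map of the 25 tested P450 genes (rows) over the 12 libraries (columns, 4 groups of 3), coloured by log2(CPM + 0.1) minus the mean of the gene. Cyp1b1 and Cyp4v3 are red in all 6 LPS libraries, whereas Cyp2a5, Cyp2w1 and Cyp3a13 are reddest in WT LPS replicates 9 and 11.

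Both genotypes had 5 of these calls in common, all in the same direction, which is 5 of the 9 in WT and 5 of the 8 in Adm+/- mice. Over all 15885 genes, 2077 (13.1%) were called in the same direction in both genotypes, where the P450 genes had 5 of 25. Cyp1b1 (ENSMUSG00000024087, chr17:79701537-79715061 of mm10), which oxidizes polycyclic aromatic hydrocarbons and estrogens outside the liver, showed the clearest response. Its level was 9.24, 6.21 and 4.88 CPM in WT PBS and 54.6, 44.6 and 22.7 CPM in WT LPS. The Adm+/- values were 2.42, 6.69 and 5.41 CPM under PBS and 58.3, 51.6 and 55.2 CPM under LPS. Every LPS library lay above every PBS library, and within WT LPS replicate 11 was the lowest. The fold was 5.94 in WT (log2 fold change 2.57, with a standard error (SE) of 0.38; adjusted p = 0.00116, edgeR) and 11.2 in Adm+/- mice (3.49, SE 0.39; adjusted p = 0.000129, edgeR). The difference between these responses was 0.92 on the log2 scale (SE 0.52; adjusted p = 0.755, edgeR).

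Cyp4v3 (ENSMUSG00000079057, chr8:45304944-45333216), the counterpart of the human fatty acid hydroxylase CYP4V2, was at 12.3, 11 and 7.91 CPM in WT PBS and at 28.3, 21 and 21.7 CPM in WT LPS. Adm+/- libraries had it at 9.42, 13.3 and 10.7 CPM under PBS and at 25.6, 27.1 and 30.1 CPM under LPS. No LPS library fell into the range of the PBS libraries in either genotype. The fold was 2.27 in WT (log2 1.18, SE 0.19; adjusted p = 0.00187, edgeR) and 2.47 in Adm+/- mice (log2 1.30, SE 0.19; adjusted p = 0.000523, edgeR). Exons of Cyp4v3 overlap those of Gm45753 on the same strand, and how shared reads were assigned is not known.

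Cyp2b10 (ENSMUSG00000030483, chr7:25897620-25926624), the phenobarbital-inducible P450 that reports activity of the receptor CAR in liver, was at 7.15, 5.58 and 5.81 CPM in WT PBS and at 11.4, 11.1 and 11.7 CPM in WT LPS. Adm+/- PBS libraries had 4.47, 6.83 and 5.29 CPM and Adm+/- LPS libraries 9.72, 11.2 and 11.8 CPM. The groups were separate in both genotypes and the 3 WT LPS libraries were close together. Cyp2b10 rose 1.84-fold in WT (log2 0.88, SE 0.17; adjusted p = 0.00499, edgeR) and 1.97-fold in Adm+/- mice (log2 0.98, SE 0.17; adjusted p = 0.00153, edgeR).

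Cyp2e1 (ENSMUSG00000025479, chr7:140763739-140774987), which oxidizes ethanol and small solvents, was lower in level. WT PBS libraries had 1.86, 1.6 and 1.24 CPM and WT LPS libraries 6.16, 2.20 and 3.94 CPM. Adm+/- values were 1.21, 1.08 and 1.35 CPM under PBS and 3.70, 1.89 and 3.38 CPM under LPS. The LPS libraries of each genotype lay above its PBS libraries, replicates 10 and 2 by the least. The rise was 2.60-fold in WT (log2 1.38, SE 0.37; adjusted p = 0.0222, edgeR) and 2.47-fold in Adm+/- mice (log2 1.30, SE 0.37; adjusted p = 0.0217, edgeR). Without WT LPS replicates 9 and 11 the WT value was 0.48 (adjusted p = 0.603, edgeR). The call was also lost without WT PBS replicate 4 or 5 or WT LPS replicate 9 in WT mice, and without Adm+/- PBS replicate 6 or 7 or Adm+/- LPS replicate 1 or 12 in Adm+/- mice (adjusted p up to 0.116 and 0.0803, edgeR).

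Cyp2u1 (ENSMUSG00000027983, chr3:131288441-131303227), which hydroxylates arachidonic acid and other long-chain fatty acids, was the gene that fell in both genotypes. It was at 4.39, 2.77 and 3.95 CPM in WT PBS and at 1.36, 1.75 and 2.11 CPM in WT LPS. Adm+/- PBS libraries held 4.37, 4.66 and 4.97 CPM, and Adm+/- LPS libraries held 1.27, 1.59 and 1.21 CPM. All 6 LPS libraries were below all 6 PBS libraries. The log2 fold change was −1.10 in WT (SE 0.23; adjusted p = 0.00738, edgeR) and −1.78 in Adm+/- mice (SE 0.23; adjusted p = 0.000281, edgeR), and their difference of −0.68 (SE 0.33) had an adjusted p of 0.658 in edgeR. The WT call of Cyp2u1 was lost when only the libraries compared were fitted. An exon of the gene is overlapped by 4930534D22Rik on the opposite strand.

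**Figure D4:**
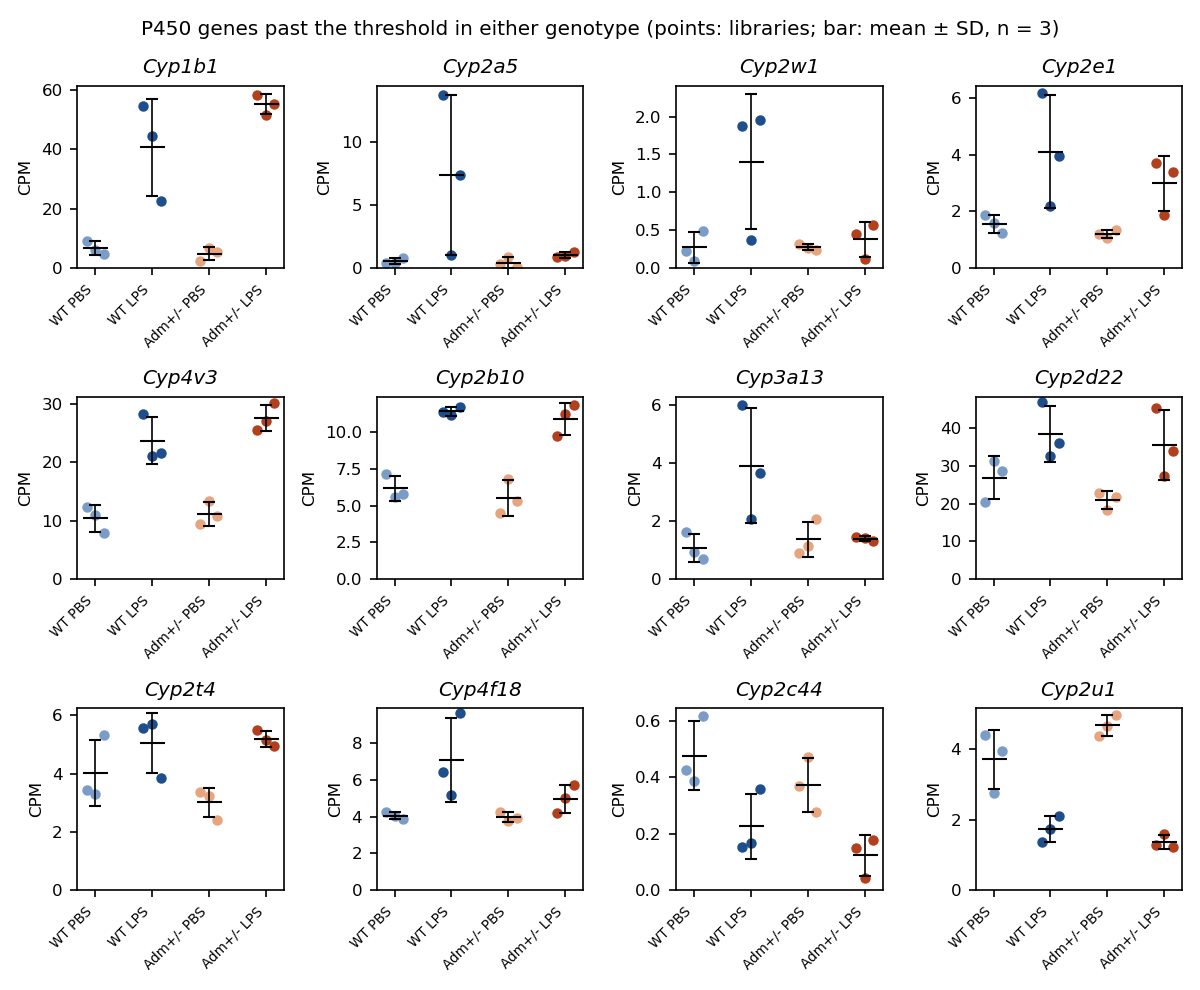
CPM of the 12 P450 genes past the threshold in either genotype, with 1 point for each library and the mean ± SD of the 3 libraries of a group. Each panel has its own CPM axis from 0. The LPS points of Cyp1b1, Cyp4v3 and Cyp2b10 lie above the PBS points in both genotypes, and those of Cyp2a5, Cyp3a13 and Cyp2w1 spread widely within WT LPS.

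Another 4 of the 25 genes were called in WT mice and not in Adm+/- mice, beside 4.43% of all tested genes. Cyp2a5 (ENSMUSG00000005547, chr7:26835305-26843548), which hydroxylates coumarin and activates tobacco nitrosamines, was at 0.427, 0.388 and 0.803 CPM in WT PBS and at 13.7, 1.08 and 7.33 CPM in WT LPS. Adm+/- libraries stayed between 0.0795 and 0.912 CPM under PBS and between 0.860 and 1.28 CPM under LPS. WT LPS replicates 9 and 11 thus stood far above the other 10 libraries. The WT log2 fold change was 3.81 (SE 0.85; adjusted p = 0.00932, edgeR), and without WT LPS replicates 9 and 11 it was 1.04 (adjusted p = 0.579, edgeR). In limma-voom the WT call was lost (adjusted p = 0.0666). Cyp2a5 and Cyp2a4 are near-identical copies, so the assignment of reads between them is uncertain.

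Cyp3a13 (ENSMUSG00000029727, chr5:137892932-137921619), a member of the drug-oxidizing 3A subfamily, was at 1.63, 0.922 and 0.680 CPM in WT PBS and at 6.01, 2.08 and 3.66 CPM in WT LPS. Adm+/- libraries had 0.894, 1.15 and 2.07 CPM under PBS and 1.46, 1.42 and 1.32 CPM under LPS. The WT groups were separate, while in Adm+/- mice the LPS libraries lay inside the PBS range. The log2 fold change was 1.83 in WT (SE 0.44; adjusted p = 0.0134, edgeR) and 0.02 in Adm+/- mice (adjusted p = 0.978, edgeR). Without WT LPS replicate 9 the WT value was 1.37 (adjusted p = 0.0703, edgeR), and without replicate 11 as well it was 0.91 (adjusted p = 0.410, edgeR).

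Cyp2w1 (ENSMUSG00000029541, chr5:139352617-139357033), a P450 of the fetal gut, was at 0.233, 0.0971 and 0.494 CPM in WT PBS and at 1.88, 0.374 and 1.95 CPM in WT LPS. These ranges overlapped, with WT LPS replicates 9 and 11 high. Adm+/- libraries had 0.239 to 0.316 CPM under PBS and at 0.126 to 0.570 CPM under LPS, again overlapping. The WT log2 fold change was 2.41 (SE 0.69; adjusted p = 0.0292, edgeR), and 0.51 without both libraries. Cyp2w1 was above the filter's minimum in 1 PBS and 4 LPS libraries. It passed only with the treatment in which it was high, so that the test is not independent of the filter. The call was lost in limma-voom (adjusted p = 0.0637) and without WT PBS replicate 3 or 4 or WT LPS replicate 9 or 11 (adjusted p up to 0.112, edgeR).

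Cyp4f18 (ENSMUSG00000003484, chr8:71988482-72009626), which hydroxylates leukotriene B4 in myeloid cells, was at 4.23, 4.03 and 3.89 CPM in WT PBS and at 6.41, 5.16 and 9.60 CPM in WT LPS. It was at 3.75 to 4.26 CPM in Adm+/- PBS and at 4.19 to 5.70 CPM in Adm+/- LPS. The WT groups were separate and the Adm+/- groups overlapped. Zfp961 overlaps exons of Cyp4f18 on the opposite strand. The WT log2 fold change was 0.80 (SE 0.22; adjusted p = 0.0251, edgeR), against 0.34 without WT LPS replicates 9 and 11 (adjusted p = 0.498, edgeR). The call also ended without WT PBS replicate 4 or 5 or either of those LPS libraries alone (adjusted p up to 0.0819, edgeR). In Adm+/- mice it was 0.32 (adjusted p = 0.291, edgeR). Neutrophil markers summed to 1606 to 2965 CPM in LPS and 40.7 to 185 CPM in PBS libraries, and their part in this result was not tested. As these are whole lungs, fewer cells of a type and less RNA per cell cannot be told apart.

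Genes called in Adm+/- mice and not in WT mice numbered 3 of 25, close to the share over all tested genes of 11.8%. Cyp2d22 (ENSMUSG00000061740, chr15:82370527-82380260) was at 22.8, 18.2 and 21.8 CPM in Adm+/- PBS and at 45.4, 27.3 and 33.9 CPM in Adm+/- LPS. The groups were separate, and the log2 fold change was 0.76 (SE 0.21; adjusted p = 0.0197, edgeR). Without Adm+/- PBS replicate 7 or Adm+/- LPS replicate 1 it was not called (adjusted p up to 0.0917, edgeR). In WT mice Cyp2d22 was at 20.5 to 31.3 CPM under PBS and at 32.6 to 46.8 CPM under LPS, also without overlap (log2 0.52, adjusted p = 0.102, edgeR).

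Cyp2t4 (ENSMUSG00000078787, chr7:27153714-27158668) was at 3.37, 3.24 and 2.43 CPM in Adm+/- PBS and at 5.5, 5.15 and 4.95 CPM in Adm+/- LPS. These groups were separate, with a log2 fold change of 0.79 (SE 0.23; adjusted p = 0.0228, edgeR). Without Adm+/- PBS replicate 8 or any of the 3 Adm+/- LPS libraries it was not called (adjusted p up to 0.0902, edgeR). In WT mice its groups overlapped (3.30 to 5.31 CPM under PBS and 3.86 to 5.70 CPM under LPS; log2 0.34, adjusted p = 0.304, edgeR). Without the 3 libraries with Y-linked reads, an alternative chosen after seeing the data, edgeR called Cyp2t4 higher in WT mice too. Egln2 overlaps its exons on the opposite strand.

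Cyp2c44 (ENSMUSG00000025197, chr19:44005022-44029208), which makes epoxides of arachidonic acid, was at the low end of the measurement. Adm+/- PBS libraries had 0.368, 0.473 and 0.278 CPM and those treated with LPS had 0.15, 0.0419 and 0.178 CPM, so that the groups were separate. The fitted log2 fold change was −1.54 (SE 0.52; adjusted p = 0.0435, edgeR) in Adm+/- mice and −1.06 in WT mice (adjusted p = 0.129, edgeR). It passed the filter only through 3 PBS libraries, the treatment in which it was high, so that the test is not independent of the filter. It was not called by DESeq2 (adjusted p = 0.0721) or by edgeR without that filter (adjusted p = 0.0578), and it was not tested with a filter at 1 CPM or with only the libraries compared. The gene had 85 counts over all 12 libraries, and 9 of 12 fits without a single library did not call it.

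Among the P450 genes best known in lung toxicology, Cyp4b1, Cyp2s1 and Cyp1a1 did not pass the threshold in either genotype. Cyp4b1 was at 103, 120 and 106 CPM in WT PBS and at 102, 98.0 and 108 CPM in WT LPS. It was at 105, 94.2 and 101 CPM in Adm+/- PBS and at 93.5, 90.9 and 98.4 CPM in Adm+/- LPS. The treatments overlapped in both genotypes. The log2 fold change was −0.10 in WT (approximate 95% interval from −0.30 to 0.11) and −0.09 in Adm+/- mice (−0.29 to 0.12).

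Cyp2s1 was at 39.2 to 57.7 CPM in WT PBS and at 42.5 to 57.3 CPM in WT LPS, with a log2 fold change of 0.03 (approximate 95% interval from −0.33 to 0.39). In Adm+/- mice it was at 37.9 to 42.2 CPM under PBS and at 45.3 to 55.3 CPM under LPS, without overlap, with a log2 fold change of 0.30 (−0.06 to 0.66). Cyp1a1, the gene most used as a readout of the aryl hydrocarbon receptor, was at 0.437 to 2.21 CPM in the PBS libraries and at 0.262 to 1.62 CPM in the LPS libraries. Its log2 fold change was −0.48 in WT (−1.84 to 0.88) and −0.73 in Adm+/- mice (−2.19 to 0.73). At this depth its intervals span both a fall and a rise.

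The remaining 10 tested genes (Cyp2ab1, Cyp2j6, Cyp2j9, Cyp2r1, Cyp4a32, Cyp4f13, Cyp4f15, Cyp4f16, Cyp4f17 and Cyp4f39) were past the threshold in neither genotype in the edgeR fit of all libraries. DESeq2 called Cyp4f39 higher in Adm+/- mice, as did edgeR with only the libraries compared and in some fits with a library left out. In WT mice edgeR called Cyp4f39 higher without WT PBS replicate 3 or WT LPS replicate 10. It called Cyp2ab1 lower there without WT PBS replicate 5. With all libraries, the log2 fold changes of the 10 genes ran from −1.05 (Cyp2ab1) to 1.10 (Cyp4f39) in WT mice and from −0.51 (Cyp2ab1) to 1.21 (Cyp4f39) in Adm+/- mice. Cyp4f16 was at 22 to 30.02 CPM in WT PBS and 19.8 to 23.2 CPM in WT LPS (log2 −0.25, adjusted p = 0.185, edgeR), and Cyp4f13 at 20.0 to 24.2 and 19.6 to 24.8 CPM (0.01, adjusted p = 0.978, edgeR). The treatments overlapped for both genes in WT mice. Cyp4f16 was at 23.0 to 25.9 CPM in Adm+/- PBS and 18.1 to 21.2 CPM in Adm+/- LPS, without overlap (log2 −0.29, adjusted p = 0.119, edgeR). Within the Cyp4f subfamily, 1 of 6 tested genes was called in WT mice (Cyp4f18) and none in Adm+/- mice by edgeR with all libraries, beside 17.6% and 25.0% of all tested genes. On chromosome 7, Cyp2s1, Cyp2b10, Cyp2a5 and Cyp2t4 lie within the region from 25802475 to 27158668, and their log2 fold changes in WT mice were 0.03, 0.88, 3.81 and 0.34. For Adm+/- mice the values were 0.30, 0.98, 1.18 and 0.79.

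The 56 genes that could not be tested were summed in each library. Their counts came to 283 in WT LPS replicate 9 and 133 in WT LPS replicate 11, against 51 in WT LPS replicate 10 and 30 to 94 in the other libraries. Untested Cyp2c genes made up 112 and 54 of these counts in WT LPS replicates 9 and 11 and 26 at most elsewhere. Hepatocyte markers, 14 genes led by albumin in liver, summed to 77.1 and 38 CPM in the same 2 libraries and to 7.43 to 35 CPM in the rest. All 14 had counts in WT LPS, Adm+/- PBS and Adm+/- LPS, and 13 in WT PBS, where Serpina1c had none. The part of squamous or liver RNA in the levels of Cyp2a5, Cyp2w1, Cyp3a13, Cyp2e1 and the Cyp2c genes was not tested.

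**Figure D5:**
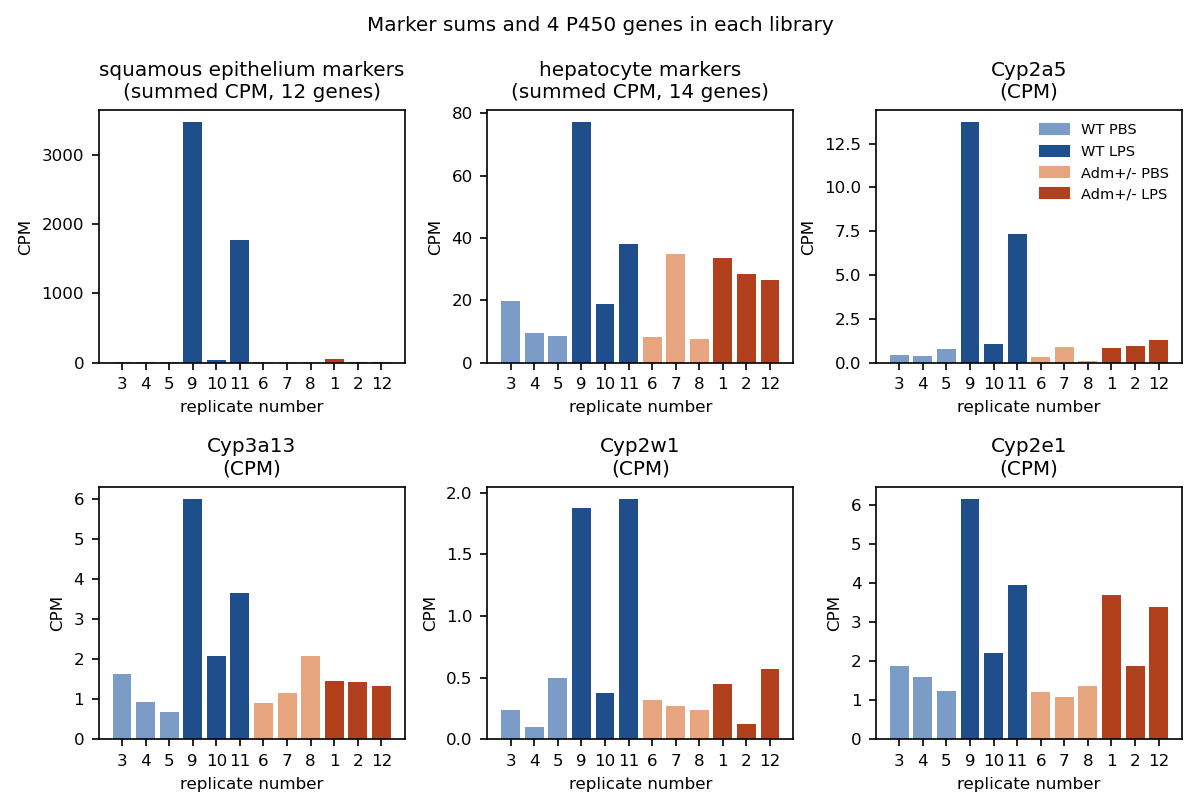
Bars give, for each library in the order of its group, the summed CPM of 12 squamous epithelium markers and of 14 hepatocyte markers and the CPM of Cyp2a5, Cyp3a13, Cyp2w1 and Cyp2e1. Colours stand for the 4 groups, and all axes start at 0. WT LPS replicates 9 and 11 have the highest bars in all 6 panels.

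Whether the response to LPS differed between genotypes was tested as an interaction. None of the 25 genes passed the threshold in edgeR, where 23 of 15885 genes (0.145%) did, and none did in DESeq2 or limma-voom. At an unadjusted p below 0.05, 1 gene (Cyp3a13) was found, beside 7.85% of all genes. Its difference, Adm+/- response minus WT response, was −1.81 on the log2 scale (SE 0.62; adjusted p = 0.452, edgeR), and −0.89 without WT LPS replicates 9 and 11. Differences of similar or larger size with wider errors were fitted for Cyp2a5 (−2.64, SE 1.24) and Cyp2w1 (−1.91, SE 1.03). Without those libraries the values were 0.14 for Cyp2a5 and −0.01 for Cyp2w1. The median difference over the 25 genes was −0.03, beside −0.01 over all genes.

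Under PBS, no P450 gene differed between Adm+/- and WT mice past the threshold in edgeR, DESeq2 or limma-voom, and none of all 15885 genes did in edgeR (0%). At an unadjusted p below 0.05 there was 1 gene, Cyp4f15, beside 2.17% of all genes. Cyp4f15 was at 1.36, 1.07 and 1.11 CPM in WT PBS and at 0.368, 0.743 and 0.795 CPM in Adm+/- PBS. The groups did not overlap, and the adjusted p was 0.999 in edgeR.

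Under LPS, none of the 25 genes was called between genotypes in edgeR, where 2.05% of all genes were, or in limma-voom, while DESeq2 called Cyp2a5 and Cyp3a13 lower in Adm+/- mice. Over all genes, DESeq2 called 803 in either direction and edgeR 325, with 1.72% called lower by edgeR. At an unadjusted p below 0.05 in edgeR, Cyp2a5, Cyp2w1, Cyp3a13 and Cyp4f18 were found, beside 14.3% of all genes. All 4 were lower in Adm+/- LPS, by −2.83, −1.85, −1.49 and −0.50 on the log2 scale (adjusted p = 0.0828, 0.170, 0.0954 and 0.307, edgeR). Without WT LPS replicate 10, in which the squamous markers summed to 33.4 CPM, Cyp2a5, Cyp2w1 and Cyp3a13 were called lower in Adm+/- LPS, and without replicate 9 none was. Of the squamous markers 5 of 9 tested, and of the skeletal muscle markers 10 of 10, were also lower in Adm+/- LPS, and their part in these values was not tested.

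Genes around the P450 enzymes were read from 8 lists chosen with earlier results of these data known. Their counts stand beside 10.5% of all 15885 genes called higher and 7.09% lower in WT mice, and 12.8% and 12.2% in Adm+/- mice. Of 7 redox partners, Por, the reductase that feeds electrons to all microsomal P450 enzymes, rose in both genotypes. It was at 126, 125 and 172 CPM in WT PBS and 266, 221 and 201 CPM in WT LPS (log2 0.70, adjusted p = 0.00675, edgeR). Adm+/- libraries had 135, 116 and 117 CPM under PBS and 287, 268 and 253 CPM under LPS (log2 1.13, adjusted p = 0.000250, edgeR). LPS and PBS libraries were separate in both genotypes. Cyb5r1, a cytochrome b5 reductase, fell in Adm+/- mice (−0.64, adjusted p = 0.00130, edgeR), and the other list members passed in neither genotype.

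Of 13 genes of heme synthesis and breakdown, 2 rose in WT mice, Hmox1 and Alas1, where 10.5% of all tested genes were called higher. Hmox1, which degrades heme, had log2 fold changes of 1.93 in WT (adjusted p = 0.000424, edgeR) and 1.87 in Adm+/- mice (adjusted p = 0.000209, edgeR). Alas1, the rate-limiting enzyme of heme synthesis, rose from 126 ± 11.3 to 191 ± 5.56 CPM in WT and from 113 ± 11 to 190 ± 16.5 CPM in Adm+/- mice (SD, n = 3; adjusted p = 0.00304 and 0.000413, edgeR). Adm+/- mice had in addition a fall of Alad, a later step of the same synthesis (−0.73, adjusted p = 0.0209, edgeR).

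Of 12 nuclear receptors that sense foreign compounds or fatty acids and their partners, 8 were tested. None was called in WT mice by edgeR, whereas Adm+/- mice had Ppard higher (0.91, adjusted p = 0.000971, edgeR) and Rxrg lower (−2.07, adjusted p = 0.00530, edgeR). Under LPS, Rxrg and Ppara, the receptor that drives Cyp4a genes in liver, were lower in Adm+/- than in WT mice, by −1.999 and −0.87 on the log2 scale (adjusted p = 0.0458 and 0.0400, edgeR). Of 9 genes of the aryl hydrocarbon receptor pathway outside the P450 genes, WT mice had Lpcat2 higher and Arnt2 lower. Adm+/- mice had 3 genes higher, Lpcat2, Tiparp and Aldh3a1, and Arnt2 and Ahr itself lower, the latter by −0.81 (adjusted p = 0.00186, edgeR). Aldh3a1 was at 1.42, 2.53 and 2.11 CPM in Adm+/- PBS and at 3.44, 3.44 and 3.46 CPM in Adm+/- LPS. Ahrr and Nqo1, other known targets of the receptor, were past the threshold in neither genotype, with log2 fold changes from −0.19 to 0.37.

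Other enzymes of foreign compound metabolism were called in part. Among epoxide hydrolases and flavin monooxygenases, Fmo2, the main flavin monooxygenase of lung, rose by 1.29 in WT (adjusted p = 0.0310, edgeR) and 1.15 in Adm+/- mice (adjusted p = 0.0358, edgeR). Ephx3 rose in WT mice, and Fmo5 and Ephx2 fell in Adm+/- mice. Of 7 tested UDP-glucuronosyltransferases and sulfotransferases of 16, Ugt1a7c, Sult1a1 and Sult5a1 rose in both genotypes and Ugt1a6b in WT mice. Ugt1a genes share exons, so the counts of a single one are uncertain.

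Of 11 genes of arachidonic acid release and the lipoxygenase arm, 6 rose in WT and 4 in Adm+/- mice, beside 10.5% and 12.8% of all tested genes. Among them were Alox5ap (log2 2.40 and 2.11), Ltb4r1 (2.07 and 1.99) and Alox5 (1.11 and 0.85). Alox15 rose in WT mice by 5.34 (adjusted p = 0.00424, edgeR) and was lower in Adm+/- than in WT mice under LPS (adjusted p = 0.0233, edgeR). Its level was 56.2 and 43.2 CPM in WT LPS replicates 9 and 11 and 1.66 CPM at most in the other 10 libraries. Of 14 tested genes of other P450 families (22 listed), the oxysterol hydroxylase gene Cyp7b1 rose in both genotypes, by 2.37 (adjusted p = 0.00168, edgeR) and 3.07 (adjusted p = 0.000202, edgeR). Cyp26b1, which degrades retinoic acid, fell in both (−0.86 and −0.94). Cyp27a1 fell in Adm+/- mice by −1.47 and was lower there than in WT mice under LPS (adjusted p = 0.0151, edgeR). Cyp11a1 and Cyp46a1 fell in Adm+/- mice. Cyp2f2 of club cells was called higher in WT mice, with 231, 163 and 138 CPM in WT PBS and 360, 223 and 336 CPM in WT LPS. WT LPS replicate 10 lay inside the PBS range, and replicates 9 and 11 above it. In all, 2 of the 14 tested genes of other P450 families rose and 1 fell in WT mice, beside 10.5% and 7.09% of all tested genes. In Adm+/- mice 2 rose and 4 fell, beside 12.8% and 12.2%.

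Cell type markers moved with LPS as well, and their part in the P450 results was not tested. Over all tested genes, 10.5% were called higher and 7.09% lower in WT mice, and 12.8% and 12.2% in Adm+/- mice. Of 10 neutrophil markers 9 were higher in WT and 10 in Adm+/- mice, and of 10 monocyte and macrophage markers 8 and 7 were. Of 10 club and airway secretory markers 2 rose in WT, and 2 rose and 1 fell in Adm+/- mice, and their sum was 4302 to 5301 CPM in LPS and 2049 to 3115 CPM in PBS libraries. Of 10 type II pneumocyte markers 1 rose in WT, and 3 rose and 2 fell in Adm+/- mice. Of 10 type I pneumocyte markers 1 rose and 1 fell in WT, and 2 rose in Adm+/- mice. Of 10 endothelial markers 2 fell in WT, and 3 fell and 1 rose in Adm+/- mice. Of 10 fibroblast markers 2 rose and 1 fell in WT, and 2 fell in Adm+/- mice. Of 10 ciliated cell markers 1 and 2 fell, and of 9 tested lymphocyte markers 0 and 2 fell. Squamous markers were called in WT mice for 9 of 9 tested genes (12 listed) and in Adm+/- mice for 0 by edgeR, skeletal muscle markers for 10 and 1 of 10, and hepatocyte markers for 4 and 3 of 11. Krt13, Krt6a, Dsg3 and Tmprss11b of the squamous markers were at 0.155 CPM at most in PBS libraries. They passed the filter only with LPS libraries, so that their calls are not independent of it. The squamous sum was 3472 and 1769 CPM in WT LPS replicates 9 and 11 and 33.4 CPM in replicate 10.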

How the data were processed

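Whole-lung RNA was sequenced from 12 mice, 1 library each, with a directional kit after rRNA depletion. Trim Galore, HISAT2 (against mm10) and featureCounts (on Gencode genes) were the authors' tools for trimming, alignment and counting. The table they deposited holds raw counts, unfiltered and not normalized. The Gencode release and the strand option are not given in the sources used here, so reads of overlapping genes may be shared in an unknown way. Groups and replicate numbers were taken from the sample labels. Replicates are separate mice, and no pair of libraries was identical in the 12 pairs compared.

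P450 genes were the protein-coding rows whose symbols begin with Cyp, a family number from 1 to 4 and a letter, without Cyp2f2. Counts of 21950 protein-coding genes were filtered with filterByExpr (minimum count 10, here 0.407 CPM, in at least 3 libraries), scaled by TMM and fitted with edgeR 4.0.16 in R 4.3.3. A single quasi-likelihood fit of the 4 groups had 8 residual degrees of freedom, no covariate and 5 contrasts, with two-sided tests and Benjamini-Hochberg adjustment over 15885 genes. CPM uses the TMM library size of the tested genes, and values per kb use exon lengths of Gencode M21, which held all 81 genes. Intervals are approximate, from the standard error and 8 degrees of freedom. Reads carry no molecular identifiers.

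Genes named are those past the threshold, the 5 with the highest level per length and 8 from lung toxicology, with up to 4 called genes per list and comparison. Aldh3a1 is named in addition. The members, this rule and the 20 lists were chosen with earlier results of these data known. The fit was tested on simulated counts. Alternatives were RLE size factors, DESeq2 1.42.0, limma 3.58.1 (voom, and treat against a log2 fold change of 0.5), other filters, all annotated genes, only the libraries compared and leaving libraries out. The values of 1 gene of the lists are not reported here.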

Additional observations from a re-analysis of the deposited data

How the results depend on the processing

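No paired analysis was possible because the labels give no litter or other link between mice of different groups. The replicate numbers only count the libraries through all 4 groups. The count of P450 genes past the threshold in WT mice was 9 with RLE size factors, DESeq2 and all annotated genes, and 7 with limma-voom, which did not call Cyp2a5 (adjusted p = 0.0666) and Cyp2w1 (0.0637). It was 4 when only the libraries compared were fitted, 1 (Cyp1b1) with limma-voom treat, and 1 without both WT LPS replicates 9 and 11, an alternative chosen after seeing the data. Calls over all genes were 1152, 542 and 759 in these fits, beside 2791 with the settings of the report. Leaving out 1 library gave 5 (without WT LPS replicate 9; 1443 over all genes) to 12 (without WT LPS replicate 10; 2670). The 12 include Cyp2c29 and Cyp2c50, which passed the filter only through WT LPS replicates 9 and 11. In Adm+/- mice the count was 3 with limma-voom treat (1139 over all genes, beside 3968), and it ran from 4, without Adm+/- LPS replicate 1 (3075 over all genes), up to 9, without WT LPS replicate 10 (3910; Cyp2c50 again included), when 1 library was left out, with 5 without Adm+/- PBS replicate 7 (3504) and without Adm+/- LPS replicate 12 (3033). Between genotypes under LPS it was 2 with DESeq2 and 0 to 3 with 1 library left out, the highest without WT LPS replicate 10 (550 over all genes, beside 325). For the interaction and for genotype under PBS it was 0 in all fits run. Across the edgeR fits that left out 1 library, the calls of Cyp1b1, Cyp4v3, Cyp2b10, Cyp2u1 and Cyp2a5 were not lost. That of Cyp3a13 was lost in 1 of 12 fits, of Cyp2d22 in 2, of Cyp2w1, Cyp4f18 and Cyp2t4 in 4, of Cyp2c44 in 9, and of Cyp2e1 in 3 in WT and 4 in Adm+/- mice.

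Some differences between genotypes changed sign. The largest, −2.64 for Cyp2a5, was 0.14 without both WT LPS replicates 9 and 11. That of Cyp2e1 was 0.061 without both WT PBS replicate 5 and Adm+/- PBS replicate 6, 0.83 without both WT LPS replicates 9 and 11, 0.12 without the 3 libraries with Y-linked reads, and −0.37 to 0.35 with 1 library left out. That of Cyp2t4 was −0.077 without the 3 libraries. With 1 library left out, Cyp2b10 ranged from −0.036 to 0.28 and Cyp4v3 from −0.017 to 0.29. None of these differences was past the threshold, and the cause was not tested. Of the tested genes, Cyp2c44, Cyp2w1 and Cyp2ab1 had the fewest counts over the 12 libraries, 85, 186 and 238.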
